A study of Rattus norvegicus with 8 samples.

Results

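The genes of the citrate cycle and of the respiratory chain were followed in ovaries of DHT-treated and CTL rats. The set holds 42 listed genes in 6 classes. They were chosen by name, with earlier results of these data known. The classes hold 13 genes of the citrate cycle, 12 of complex I, 4 of complex II, 3 of complex III, 6 of complex IV and 4 of complex V. Ndufa4 was counted with complex IV, where current subunit lists place it. A gene was read through a probe set that carries its symbol alone, and where a gene had several, through the one with the highest mean over the 6 arrays of single animals. This measured 40 of the 42 genes, out of 14217 genes with such a probe set on the array. Fh, the fumarase gene, and Atp5mc1, a ring subunit of ATP synthase, were not measured in this way.

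Female Sprague-Dawley rats carried a silicone capsule for 12 weeks, releasing DHT (5α-dihydrotestosterone, an androgen that cannot be converted to estrogen) in the DHT group and empty in the CTL group. Ovarian cortex was taken at 15 weeks of age. RNA of 3 separate animals per group was read on Affymetrix rat genome arrays, and a further array per group read an equal mixture of the RNA of the same 3 animals, which made 8 arrays. By the study's account most CTL ovaries held corpora lutea and DHT ovaries held few or none, so the groups differ in cell makeup as well as in treatment, and in RNA of whole tissue fewer cells of a type and less RNA per cell cannot be told apart.

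The citrate cycle in the mitochondrial matrix strips electrons from acetyl-CoA and hands them to NADH and to succinate dehydrogenase. Complexes I, III and IV of the inner membrane pass those electrons to oxygen and pump protons, complex II feeds electrons in from succinate, and complex V, the ATP synthase, uses the proton gradient. Steroid-making cells of the ovary are rich in mitochondria, since the first step of steroid synthesis takes place there. All genes followed here are nuclear, so the subunits encoded by mitochondrial DNA are not among them.

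The promoters of the 3 genes whose groups did not overlap are printed first, Dlst being lower and Idh2 and Ndufb5 higher in all 3 DHT animals than in any CTL animal. Such a separation held for 6.85% of all probe sets on the lower side and 10.6% on the higher, and served here only to choose promoters for display. They are RefSeq sequences of the rat assembly GRCr8 around the start of the gene, each of 300 bases, read 5′ to 3′ along the gene. Capitals mark matches, on either strand, to CGGAAGT or its reverse complement ACTTCCG, the core of sites bound by ETS factors such as GABP, a regulator of many mitochondrial genes, and to GGGCGG or its reverse complement CCGCCC, the GC box of SP1. Dlst lies on chromosome 6 (chr6:110489456-110489755, plus strand), Idh2 on chromosome 1 (chr1:143467199-143467498, minus strand) and Ndufb5 on chromosome 2 (chr2:117447355-117447654, plus strand).
Dlst: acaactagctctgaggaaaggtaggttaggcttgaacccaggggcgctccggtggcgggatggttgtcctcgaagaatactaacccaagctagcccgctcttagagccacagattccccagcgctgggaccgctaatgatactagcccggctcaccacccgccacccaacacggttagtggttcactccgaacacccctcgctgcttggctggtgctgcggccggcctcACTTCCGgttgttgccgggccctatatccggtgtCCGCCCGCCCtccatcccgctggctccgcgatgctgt
Idh2: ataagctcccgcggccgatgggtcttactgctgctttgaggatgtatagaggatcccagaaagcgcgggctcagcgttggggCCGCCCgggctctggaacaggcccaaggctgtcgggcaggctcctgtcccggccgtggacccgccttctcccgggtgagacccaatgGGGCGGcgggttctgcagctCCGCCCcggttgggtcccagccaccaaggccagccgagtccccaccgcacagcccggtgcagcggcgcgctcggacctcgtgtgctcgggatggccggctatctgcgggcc
Ndufb5: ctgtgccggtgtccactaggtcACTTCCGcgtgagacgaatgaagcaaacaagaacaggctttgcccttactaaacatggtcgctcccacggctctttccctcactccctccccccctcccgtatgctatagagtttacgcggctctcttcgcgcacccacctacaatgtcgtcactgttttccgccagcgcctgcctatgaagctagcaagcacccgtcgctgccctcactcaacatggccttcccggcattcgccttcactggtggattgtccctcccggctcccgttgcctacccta

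Values are log2 expression per probe set as the authors normalized them by GCRMA, so a difference of 1 is a fold change of 2, and they are given in the order of replicates 1 to 3. The deposited arrays were not alike. Gapdh is read by control probe sets near either end of its mRNA, and the 3′ reading exceeded the 5′ reading by 0.39 and 0.62 on CTL replicates 1 and 2, by 3.49 on CTL replicate 3 and by 2.99 to 3.98 on the DHT replicates. The median of all 31042 probe sets was 3.25 there and at most 3.03 elsewhere. CTL replicate 3 correlated with CTL replicate 1 at a Pearson r of 0.866 over all probe sets, against 0.983 between CTL replicates 1 and 2. Results are therefore given with and without CTL replicate 3. Of the 40 genes, 39 lay above the background level of each array, which was 2.62 to 3.07, on all 6 arrays of single animals. The exception was Ndufb8, at 3.06 on CTL replicate 3.

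Over all 6 animals no gene of the citrate cycle or the respiratory chain was called. A gene was called where limma, run over all 31042 probe sets, gave at least a 2-fold change with a p of at most 0.01 and an FDR of at most 10%. This was met by 0 of the 40 genes in either direction, against 0.351% of all probe sets called lower and 0.68% called higher in DHT. Without regard to the FDR, 2 genes had an unadjusted p under 0.05, Dlst (lower) and Idh2 (higher). The log2 fold change, DHT minus CTL, had a median of -0.14 over the 40 genes and ranged from -1.38 to 0.84, with 26 genes below 0 and 14 above, while the median over all probe sets was -0.03. Groups did not overlap for 1 gene that was lower in DHT and 2 that were higher, against 6.85% and 10.6% of all probe sets.

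The median hid opposite placements within the CTL group. On CTL replicate 1, 30 of the 40 genes lay above all 3 DHT values, and on CTL replicate 2 it was 34. Over all probe sets these were 22.9% and 22.2%, and over those above background on all 6 arrays 31.5% and 31.7%. On CTL replicate 3, 37 lay below all 3 DHT values and 3 (Idh3a, Dlst and Cox5a) above them, against 27.9% and 58.5% of all probe sets. For 29 genes both happened at once, with CTL replicates 1 and 2 above the DHT range and CTL replicate 3 below it, which held for 7.13% of all probe sets and for 12.2% of those above background on all 6 arrays. Of the latter, 48.1% lay below the DHT range on CTL replicate 3. With quantile normalization of the arrays, 25 of the 40 genes lay below the DHT range on CTL replicate 3 and 10 above it. The shares of all probe sets were then 42.1% and 43.9%. On each of CTL replicates 1 and 2, 29 genes lay above the DHT range, against 28.5% and 31.3%. The split between CTL replicates then held for 23 genes. With a common array median, 37 genes lay below the DHT range on CTL replicate 3, against 65.9% of all probe sets. On CTL replicates 1 and 2, 30 and 34 then lay above it, against 46.7% and 44.5%.

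**Figure D1:**
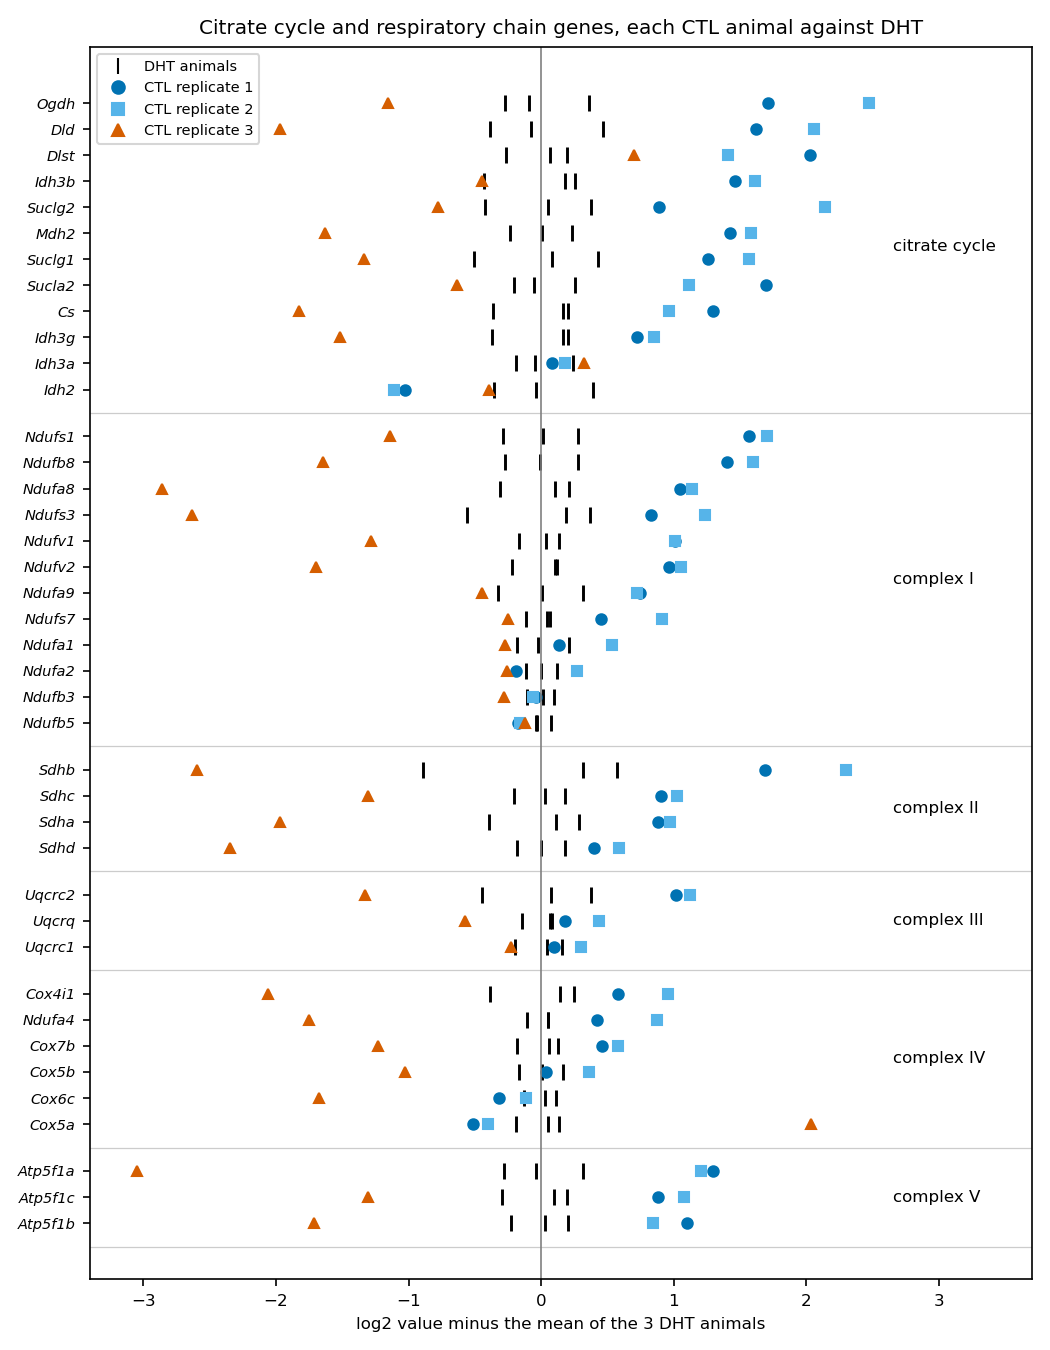
Each row is 1 gene and the horizontal axis is its log2 value minus the mean of the 3 DHT animals, with black ticks for the DHT animals and coloured symbols for the 3 CTL animals, as deposited. CTL replicates 1 and 2 lie to the right of the DHT ticks for most genes and CTL replicate 3 to the left for 37 of 40. With quantile normalization 25 of 40 genes lay to the left, against 42.1% of all probe sets, and as deposited that share was 27.9%.

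Which fold change is obtained therefore depends on 1 array. Without CTL replicate 3 the median log2 fold change of the 40 genes was -0.97, 35 genes were below 0, and 30 genes had both remaining CTL values above all DHT values, against 16.5% of all probe sets. Then 12 genes were called lower and 0 higher, against 3.12% and 2.11% of all probe sets. These 12, chosen for naming after their values were seen, were Idh3b, Ogdh, Dlst, Dld, Sucla2 and Mdh2 of the citrate cycle, Ndufa8, Ndufb8, Ndufs1, Ndufv1 and Ndufv2 of complex I, and Atp5f1a of complex V. For 11 of them, all but Dlst, CTL replicate 3 lay below the DHT range. Leaving out CTL replicate 1 or 2 gave a median of 0.13 or 0.19 and no call. Whether CTL replicate 3 or the other CTL animals stand closer to the usual level of these genes was not tested.

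**Figure D2:**
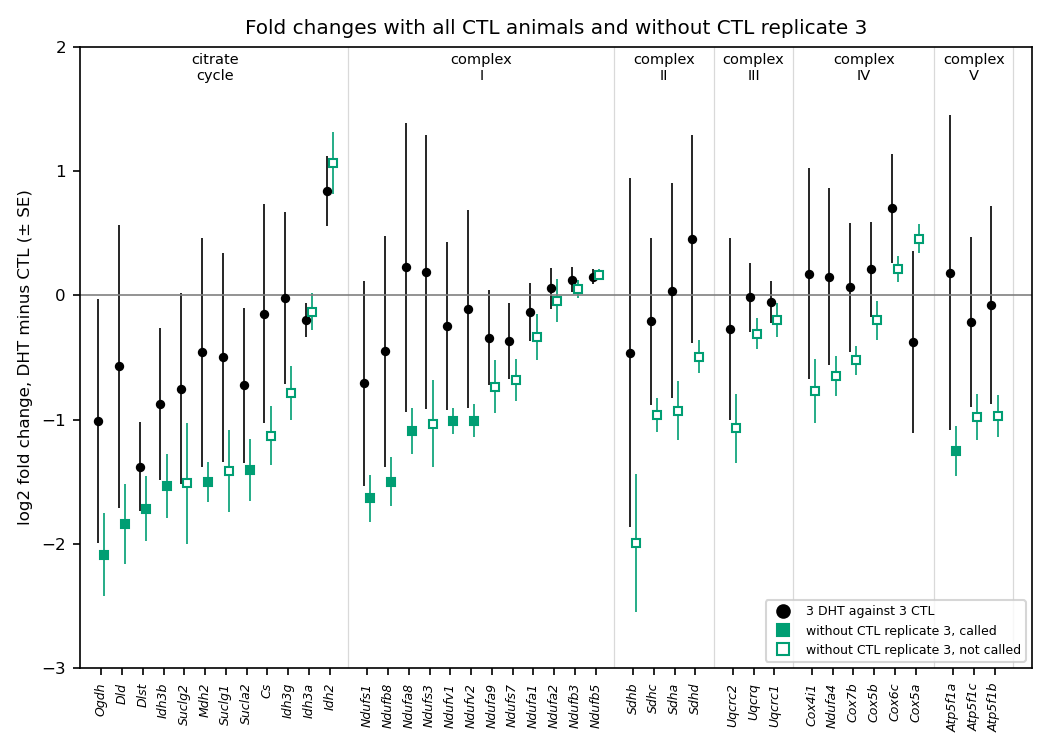
The vertical axis is the log2 fold change (DHT minus CTL, ± SE of the limma fit) of each gene, with circles for 3 DHT against 3 CTL animals and squares for the same without CTL replicate 3, filled where called. Circles scatter around 0 with wide errors, and the 12 filled squares lie between -1.01 and -2.09.

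Citrate cycle genes had the lowest class median, -0.53 with all animals and -1.46 without CTL replicate 3, where 6 of the 12 measured were called lower. Dlst, the acyl-transferring subunit of the oxoglutarate dehydrogenase complex, separated the groups of single animals, at 6.48, 6.61 and 6.15 in DHT and 8.44, 7.82 and 7.12 in CTL animals. Its lowest CTL value stood above its highest DHT value, and the log2 fold change was -1.38 ± 0.36 (FDR 0.212). It was -1.72 ± 0.26 without CTL replicate 3 and was then called (FDR 0.0478).

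The partners of Dlst did not keep that separation. Ogdh, the subunit that decarboxylates oxoglutarate, read 7.44, 7.89 and 7.25 in DHT and 9.23, 9.996 and 6.38 in CTL animals, so that CTL animals lay on both sides of the DHT animals. Dld, the lipoamide dehydrogenase that this complex shares with pyruvate dehydrogenase, read 6.19, 6.73 and 5.88 in DHT and 7.89, 8.33 and 4.30 in CTL animals. Its CTL values spanned over 4 log2 units. The log2 fold changes without CTL replicate 3 were -2.09 ± 0.33 for Ogdh and -1.84 ± 0.32 for Dld, with FDR 0.0515 and 0.0587.

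The isocitrate dehydrogenases did not move as 1 group. Idh2, the NADP-dependent enzyme of mitochondria, was higher in every DHT animal, at 9.17, 8.85 and 9.60 in DHT and 8.18, 8.10 and 8.82 in CTL animals. The log2 fold change was 0.84 ± 0.28 (FDR 0.327), and without CTL replicate 3 it was 1.07 ± 0.25 (FDR 0.0959) and was not called. Of the NAD-dependent enzyme, which serves the cycle itself, Idh3b read 7.16, 7.25 and 6.55 in DHT and 8.45, 8.60 and 6.54 in CTL animals. Idh3b was called lower without CTL replicate 3 (-1.53 ± 0.26, FDR 0.0546), and that CTL value lay just under the lowest DHT value. Idh3g, its gamma subunit, read 8.49, 8.44 and 7.92 in DHT and 9.01, 9.13 and 6.77 in CTL animals, with a log2 fold change of -0.02 ± 0.69, and the catalytic subunit Idh3a gave -0.20 ± 0.14 with values from 5.65 to 6.16 over the 6 animals.

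Succinyl-CoA ligase, which makes ATP or GTP from succinyl-CoA, was read through 3 genes. Sucla2, the ATP-forming subunit, read 7.88, 8.19 and 7.73 in DHT and 9.63, 9.05 and 7.30 in CTL animals and was called lower only without CTL replicate 3 (-1.41 ± 0.25, FDR 0.0602). The GTP-forming subunit Suclg2 gave -0.75 ± 0.77 with all animals and -1.51 ± 0.49 without CTL replicate 3, and the shared subunit Suclg1 gave -0.50 ± 0.84 and -1.41 ± 0.33. Neither was called.

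Mdh2, the malate dehydrogenase that closes the cycle, read 7.20, 7.43 and 6.96 in DHT and 8.62, 8.78 and 5.57 in CTL animals. Its log2 fold change went from -0.46 ± 0.92 to -1.50 ± 0.16 without CTL replicate 3 (FDR 0.0312). Cs, the citrate synthase that opens it, gave -0.15 ± 0.88 and -1.13 ± 0.24 (FDR 0.0802) and was not called.

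Complex I takes electrons from NADH. Its 12 genes had a median log2 fold change of -0.12 with all animals and -0.87 without CTL replicate 3, and on that array all 12 lay below the DHT range. The 5 core subunits (Ndufs1, Ndufs3, Ndufs7, Ndufv1 and Ndufv2), which carry the electron path, had a median of -1.01 without CTL replicate 3 and ranged from -1.63 to -0.68. The 7 accessory subunits, which surround the core, had a median of -0.34 and ranged from -1.50 to 0.17. This division was made after the values were seen and was not tested.

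Ndufv1, which binds NADH, read 7.42, 7.52 and 7.22 in DHT and 8.39, 8.39 and 6.10 in CTL animals. The DHT animals spanned 0.30 log2 units and the first 2 CTL animals were nearly identical, while CTL replicate 3 lay below all of them. Ndufv2, its iron-sulfur partner, read 8.45, 8.43 and 8.11 in DHT and 9.29, 9.38 and 6.63 in CTL animals. Without CTL replicate 3 both were called lower, by -1.01 ± 0.10 (FDR 0.0281) and -1.01 ± 0.13 (FDR 0.039), against -0.24 ± 0.68 and -0.11 ± 0.80 with all animals.

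Ndufs1, the largest iron-sulfur core subunit, read 7.83, 8.09 and 7.53 in DHT and 9.39, 9.52 and 6.68 in CTL animals, and its log2 fold change without CTL replicate 3 was -1.63 ± 0.19 (FDR 0.0343). The accessory subunit Ndufa8 read 7.69, 7.80 and 7.28 in DHT and 8.63, 8.72 and 4.73 in CTL animals, with CTL replicate 3 almost 3 log2 units under the DHT mean. Ndufb8, an accessory subunit of the membrane arm, read 4.70, 4.99 and 4.44 in DHT and 6.11, 6.31 and 3.06 in CTL animals. With that array left out, Ndufa8 gave -1.09 ± 0.19 (FDR 0.0562) and Ndufb8 -1.50 ± 0.19 (FDR 0.0391), both called.

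Other small accessory subunits varied little on any array. Ndufb5 read 10.02, 9.91 and 9.91 in DHT and 9.77, 9.79 and 9.82 in CTL animals, slightly higher in all DHT animals, with a log2 fold change of 0.15 ± 0.06 (FDR 0.44). For this gene pooled DHT minus pooled CTL went the other way, at -0.03. Ndufb3 read 8.88, 8.67 and 8.80 in DHT and 8.74, 8.72 and 8.50 in CTL animals, with a log2 fold change of 0.13 ± 0.10 (FDR 0.838), and the groups overlapped. Ndufa1 and Ndufa2 gave -0.13 ± 0.23 and 0.06 ± 0.16 with all animals. The remaining genes of the class gave -0.34 ± 0.38 (Ndufa9), 0.19 ± 1.10 (Ndufs3) and -0.37 ± 0.31 (Ndufs7). None of these 7 was called without CTL replicate 3 either.

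Complex II, succinate dehydrogenase, belongs to both the cycle and the chain, and its 4 genes showed the widest split between CTL animals of any class. All 4 lay above the DHT range on CTL replicates 1 and 2 and below it on CTL replicate 3, where the class median was -2.16 from the DHT mean. Sdhb, the iron-sulfur subunit, read 9.14, 9.40 and 7.94 in DHT and 10.51, 11.12 and 6.23 in CTL animals. The CTL animals spanned almost 5 log2 units, and the log2 fold change was -0.46 ± 1.41 with all animals and -1.99 ± 0.56 without CTL replicate 3 (FDR 0.13).

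Sdha, the flavoprotein that oxidizes succinate, read 9.16, 9.33 and 8.66 in DHT and 9.93, 10.02 and 7.08 in CTL animals, for a log2 fold change of 0.04 ± 0.87. Sdhd, a membrane anchor, read 7.74, 7.91 and 7.55 in DHT and 8.13, 8.32 and 5.39 in CTL animals, for 0.45 ± 0.84. Without CTL replicate 3 they gave -0.93 ± 0.23 and -0.49 ± 0.14, and the other anchor, Sdhc, -0.96 ± 0.14. Sdhc had an FDR of 0.0438 there but a fold change under 2, so that no gene of complex II was called in either comparison.

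Complex III passes electrons from ubiquinol to cytochrome c. The median of its 3 genes was -0.06 with all animals and -0.31 without CTL replicate 3, and no gene was called. Uqcrc2, a core protein, read 9.11, 9.40 and 8.58 in DHT and 10.05, 10.15 and 7.71 in CTL animals, for -0.27 ± 0.73 with all animals and -1.07 ± 0.28 without CTL replicate 3 (FDR 0.115). Uqcrc1, the other core protein, read 9.57, 9.45 and 9.22 in DHT and 9.51, 9.71 and 9.19 in CTL animals. The small subunit Uqcrq read 9.44, 9.43 and 9.21 in DHT and 9.53, 9.80 and 8.78 in CTL animals. For Uqcrc1 the groups overlapped and the log2 fold change was -0.06 ± 0.17 (FDR 0.907).

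Complex IV, cytochrome c oxidase, reduces oxygen, and its 6 measured genes are nuclear subunits around the mitochondrially encoded catalytic core. It was the sole class with a positive median with all animals, 0.16, which became -0.36 without CTL replicate 3. Cox6c, a small membrane subunit, read 11.51, 11.35 and 11.59 in DHT and 11.16, 11.37 and 9.80 in CTL animals, for 0.70 ± 0.44 (FDR 0.688) with all animals and 0.21 ± 0.11 without CTL replicate 3. The animal of CTL replicate 3 stood alone, over 1 log2 unit under the other 5. Cox5b read 9.66, 9.50 and 9.33 in DHT and 9.54, 9.86 and 8.47 in CTL animals and Cox7b 9.87, 9.93 and 9.62 in DHT and 10.27, 10.39 and 8.57 in CTL animals. Their log2 fold changes were 0.21 ± 0.38 and 0.06 ± 0.52, and -0.20 ± 0.15 and -0.52 ± 0.12 without CTL replicate 3.

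Cox5a was the sole gene of its class above the DHT range on CTL replicate 3. It read 5.02, 4.70 and 4.94 in DHT and 4.38, 4.49 and 6.93 in CTL animals, about 2 log2 units above the DHT mean on CTL replicate 3 and below all DHT animals on CTL replicates 1 and 2, while the pooled CTL array read 5.10. The log2 fold change was -0.37 ± 0.74 with all animals and 0.46 ± 0.12 without CTL replicate 3, and neither was called. A further Cox5a probe set carries a second symbol and was not used. Cox4i1 gave 0.17 ± 0.85 and -0.77 ± 0.26, and Ndufa4 0.15 ± 0.71 and -0.65 ± 0.16.

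Complex V was read through the 3 largest subunits of its catalytic head. The class median was -0.08 with all animals and -0.98 without CTL replicate 3. Atp5f1a, the alpha subunit, read 8.61, 8.96 and 8.36 in DHT and 9.94, 9.85 and 5.60 in CTL animals, the widest placement of CTL replicate 3 among the 40 genes at -3.05 from the DHT mean. Its log2 fold change was 0.18 ± 1.27 with all animals and -1.25 ± 0.20 without CTL replicate 3, where it was called lower (FDR 0.0526). Atp5f1b, the catalytic beta subunit, read 10.01, 10.18 and 9.75 in DHT and 11.08, 10.82 and 8.27 in CTL animals. The central stalk subunit Atp5f1c read 9.68, 9.78 and 9.29 in DHT and 10.46, 10.66 and 8.28 in CTL animals. Both were just short of a fold change of 2 without CTL replicate 3, at -0.97 ± 0.17 (FDR 0.0573) and -0.98 ± 0.19 (FDR 0.0684).

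By class, the median distance of CTL replicate 1 from the DHT mean was 1.36 log2 units for the citrate cycle, 0.79 for complex I, 0.89 for complex II and 1.10 for complex V. On CTL replicate 2 these were 1.49, 0.96, 0.99 and 1.08, and on CTL replicate 3 they were -0.97, -0.80, -2.16 and -1.71. These 4 classes kept the sign of each placement under quantile normalization and with a common array median. Complex III lay at 0.18, 0.44 and -0.57 on the 3 CTL arrays and complex IV at 0.23, 0.47 and -1.46, but under quantile normalization the signs turned for complex III on replicate 1 (-0.11) and replicate 3 (0.25) and for complex IV on replicate 1 (-0.07). Over all probe sets the same medians were -0.02, -0.03 and 0.10, and over those above background on all 6 arrays -0.08, -0.08 and -0.15. Across the 40 genes, the distance of CTL replicate 3 and the mean distance of the other CTL arrays had a Pearson r of -0.44, a description over genes that share the DHT mean.

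**Figure D3:**
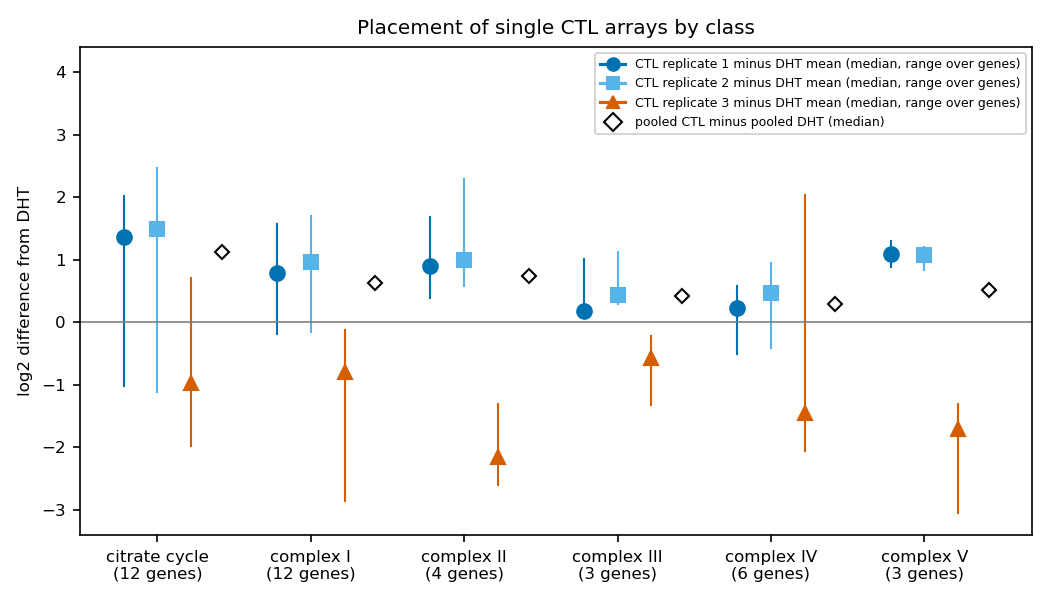
The vertical axis is the log2 difference from DHT for the 6 classes. Filled symbols are medians and lines are ranges over the genes of a class for each CTL array minus the DHT mean, and open diamonds are medians of pooled CTL minus pooled DHT RNA. CTL replicate 3 has a negative median in every class as deposited, though for complex III it turned positive (0.25) under quantile normalization. The pooled arrays differ in the direction of CTL replicates 1 and 2, whose RNA the pooled CTL array also holds.

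The pooled RNA placed the groups as CTL replicates 1 and 2 did. The pooled DHT array lay below the pooled CTL array for 38 of 40 genes, with a median difference of -0.61, against 30.5% of all probe sets with a median of 0.01, and 41.3% of those above background with a median of 0.03. By class the median was -1.12 for the citrate cycle, -0.63, -0.75, -0.42 and -0.29 for complexes I to IV and -0.52 for complex V. These are 2 arrays and allow no test. Both hold RNA of the same animals, and a linear mean leans toward the higher ones, so their direction is no independent placement. Counted as replicate 4 of each group, they gave 1 gene called lower, Dlst, and 0 higher, against 1.39% and 1.72% of all probe sets. An equal mixture should read near the mean of its animals on the linear scale, and the pooled CTL array read a median of 0.21 log2 units above it over the 40 genes, the pooled DHT array 0.01. It lay within the range of the 3 CTL animals for 34 of 40 genes.

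Second probe sets of a gene did not always follow the one used. Beside the probe set used, Uqcrc2 has a second one that read 2.74, 3.04 and 2.64 on the DHT arrays, 7.61, 6.66 and 2.62 on the CTL arrays and 2.89 on the pooled CTL array, where the linear mean of its animals would give 6.65. For Cs, a further probe set read 2.57, 2.92 and 2.43 on the DHT arrays, 5.23, 5.23 and 2.37 on the CTL arrays and 3.49 on the pooled CTL array, against 4.74 for the linear mean. Another Cs probe set, above background throughout, read 5.25, 4.89 and 4.52 on the DHT arrays and 6.92, 6.52 and 4.93 on the CTL arrays and was called lower without CTL replicate 3 (-1.84, FDR 0.0475). The Uqcrc2 probe set and the dimmer Cs probe set were also called lower without CTL replicate 3, by -4.33 for Uqcrc2 (FDR 0.0216) and -2.59 for Cs (FDR 0.0182), whereas the probe sets used for these genes were not. Sdhd disagreed too, with -1.21 on its second probe set and 0.45 ± 0.84 on the one used, neither called with all animals, and the second was called lower without CTL replicate 3 (-1.71, FDR 0.0561). The part of probe position in these differences was not tested.

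The Gapdh difference was set beside the genes. Among DHT animals it was lowest on replicate 2 and highest on replicate 3, and 24 of the 40 genes were ordered the other way, replicate 2 above replicate 1 above replicate 3, against 11.8% of all probe sets and 18.4% of those above background. DHT replicate 3 was the lowest DHT array for 35 genes, against 21.9% and 33.9%. The same difference for beta-actin ran the other way among DHT animals, at 7.02, 7.31 and 6.48, and was 4.56, 5.30 and 6.83 in CTL animals, though the 5′ beta-actin reading was near the background level (2.68 to 2.87) in the DHT animals and CTL replicate 3, so that these differences are lower bounds with no settled order. On the pooled CTL array the difference was 2.62, nearer to the DHT arrays than to CTL replicates 1 and 2, while the level of the genes there was near CTL replicates 1 and 2. With the difference as a covariate in limma, 22 genes were called higher and 1 lower (Cox5a), against 8.57% and 3.5% of all probe sets, and the median log2 fold change was 1.25. Of the 12 genes called lower without CTL replicate 3, 8 were called higher with the covariate. CTL replicate 3 is the sole CTL animal within the DHT range on this measure. Whether transcript ends, RNA quality or treatment set the levels of these genes cannot be told apart in these arrays.

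**Figure D4:**
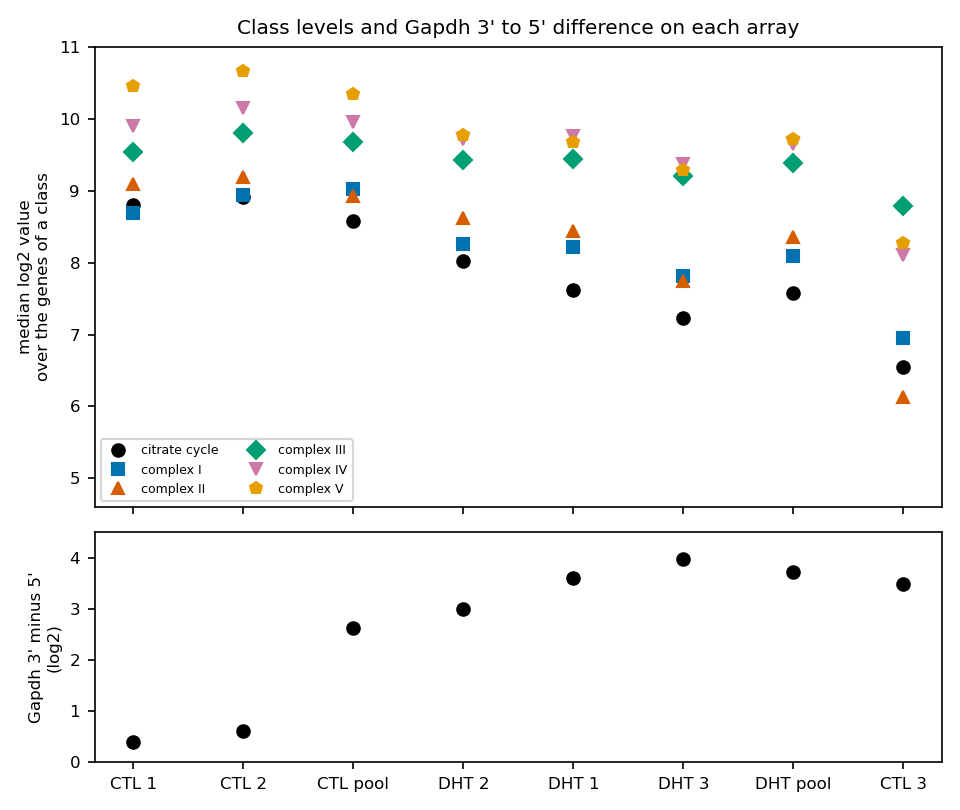
The upper panel gives the median log2 value over the genes of each class on every array, as deposited, to be compared along a class and not between classes. The lower panel gives the log2 difference between the 3′ and 5′ Gapdh control probe sets on the same arrays. CTL replicates 1 and 2 combine the smallest Gapdh differences (0.39 and 0.62) with high class levels, the pooled CTL array has high levels at a difference of 2.62, and CTL replicate 3 has the lowest levels at 3.49.

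Further genes of mitochondria were read from lists drawn up by function. Of 129 genes in lists of further subunits, assembly factors, regulators, carriers and cytosolic enzymes, 117 were measured, and with all animals 0 were called lower and 1 higher, against 0.351% and 0.68% of all probe sets. Of 43 further subunits and cytochrome c genes the median log2 fold change was 0.05, and 34 lay below the DHT range on CTL replicate 3. The shares there were 27.9% of all probe sets and 48.1% of those above background on all 6 arrays. Without CTL replicate 3 the median of these 43 was -0.29 and 3 were called lower, against 3.12% of all probe sets. For the 40 genes it was -0.97 and 12. The gene called higher was Cox6b2, known as a testis isoform of a complex IV subunit, at 5.28, 5.01 and 5.11 in DHT and 4.15, 3.97 and 3.38 in CTL animals (log2 fold change 1.31, FDR 0.097). Without CTL replicate 3, 10 of the 117 were called lower and 1 higher, against 3.12% and 2.11%. Among the 10 were Pdha1 of pyruvate dehydrogenase (-1.02) and the pyruvate carrier subunits Mpc1 (-1.16) and Mpc2 (-2.40).

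Of 5 cytosolic counterparts of cycle enzymes, 3 did not show the split between CTL animals. Idh1, the cytosolic NADP-dependent isocitrate dehydrogenase, read 9.74, 10.16 and 9.10 in DHT and 12.22, 11.54 and 11.08 in CTL animals, so that the groups did not overlap. The log2 fold change was -1.95 (FDR 0.132). Me1, the cytosolic malic enzyme, read 9.33, 9.37 and 9.06 against 10.61, 12.07 and 11.11, for -2.01 (FDR 0.121). Acly, which cleaves citrate in the cytosol, gave -1.10 (FDR 0.303), again with no overlap. CTL replicate 3 lay above the DHT range for all 3, and none was called with all animals, while Idh1 was called lower without CTL replicate 3 (-2.21, FDR 0.068). The cytosolic malate dehydrogenase Mdh1, at -0.20, was low on CTL replicate 3 (8.24 against 9.21 to 9.45 in DHT) like the mitochondrial genes.

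Regulators of mitochondrial genes were not called. Esrra, the estrogen-related receptor alpha, read 4.20, 4.38 and 4.08 in DHT and 4.92, 4.98 and 5.24 in CTL animals, without overlap, at a log2 fold change of -0.83 (FDR 0.084) that stayed under the fold minimum. Nrf1 gave 0.60 (FDR 0.237), also without overlap. Tfam, which packs mitochondrial DNA and takes part in its transcription, read 7.14, 7.59 and 7.23 in DHT and 7.43, 7.12 and 4.66 in CTL animals. The coactivator Ppargc1a lay between 2.80 and 3.40 on all 6 arrays, near the background level.

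Markers of other cells were read beside these genes. Of 11 luteal and steroidogenic markers 9 were measured, all 9 lower in DHT on average, at a median difference of -2.92 (log2), and for 8 the groups did not overlap, against 6.85% of all probe sets. With all animals 0 were called, with 6 at an unadjusted p under 0.05. Without CTL replicate 3 it was 1 (A2m), and with the pooled arrays as replicate 4 it was 6, against 3.12% and 1.39%. On CTL replicate 3, 8 of the 9 lay above the DHT range, against 58.5% of all probe sets and 34.7% of those above background on all 6 arrays. Of the 40 mitochondrial genes, 37 lay below it there, against 27.9% and 48.1%. The median log2 level of the 9 was 9.89, 9.75 and 7.07 in DHT and 11.47, 12.37 and 11.35 in CTL animals. Star, which brings cholesterol into mitochondria, read 8.34, 9.62 and 6.01 in DHT and 11.47, 12.39 and 11.35 in CTL animals. Of 9 macrophage markers 8 were lower in DHT on average and 1, Cd14, was higher, with a median log2 fold change of -0.65. For 5 of the 9 the groups did not overlap, lower in DHT, against 6.85% of all probe sets. With all animals 1 of the 9, Ctss, was called lower (-1.16), against 0.351%. Insl3, 1 of 2 theca markers, was called higher (3.11), as was Inhba, 1 of 5 granulosa markers (1.45), against 0.68% of all probe sets. Inhba read 9.95 or more in all 6 animals. The other theca marker, Cyp17a1, was higher in DHT on average, but its groups overlapped and it was not called. Of the other granulosa markers, Inha (1.79) and Amh (0.97) had positive values, Foxl2 was at 0.09 and Cyp19a1, the aromatase, at -2.91. None of them was called with all animals. Without CTL replicate 3, 2 of the 5 granulosa markers were called higher, Inha (1.23, FDR 0.0637) and Inhba, against 2.11% of all probe sets. With the pooled arrays as replicate 4 the same 2 were called higher and Cyp19a1 lower, against 1.72% and 1.39%. Striated muscle has many mitochondria, and its markers were read together with those of fat. With all animals 0 of 6 fat and 0 of 6 muscle markers were called. Ucp1, Adipoq, Plin1 and Lep of fat and Ckm, Acta1, Myh7 and Mb of muscle stayed between 2.33 and 3.33 on all 6 arrays. The other fat markers were Fabp4, at 2.98, 3.17 and 2.97 in DHT and 6.50, 4.54 and 3.24 in CTL animals, and Cidea, between 2.34 and 3.75. The other muscle markers were Tnnt2, between 4.81 and 5.80, and the heart myosin gene Myh6, at 11.68, 11.25 and 11.60 in DHT and 5.65, 7.38 and 9.26 in CTL animals. Myh6 was called higher without CTL replicate 3 (5.00, FDR 0.0349) and with the pooled arrays as replicate 4. It was the 1 muscle marker called in each, against 2.11% and 1.72% of all probe sets. Fabp4, which cells of vessels and macrophages also express, was above the DHT range in all 3 CTL animals. Of 4 red blood cell markers 2 were measured. Hbb read 7.03, 7.73 and 6.82 in DHT and 7.98, 7.80 and 3.56 in CTL animals, with the same split between CTL animals. Alas2 stayed between 2.37 and 2.55 on all 6 arrays. The part of cell makeup in the levels of the 40 genes was not tested.

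The promoters have letters in common that the choice of genes did not use. RefSeq promoters were found for 37 of the 40 genes and were set beside all 27457 promoters of the same length. YY1, NRF1, GABP and the estrogen-related receptors are known regulators of nuclear genes for mitochondria. The YY1 motif AAGATGGCG stood in 7 (18.9%) against 1.93% of all, the ETS motif CGGAAGT in 10 (27.0%) against 6.70%, and the NRF1 motif GCGCANGCG in 5 (13.5%) against 6.26%. SP1 boxes, GGGCGG, stood in 16 (43.2%) against 34.9%, and the estrogen-related receptor motif TCAAGGTCA in 1, Sdhd, against 0.412%. Both strands were searched, and none of these motifs holds another. Of the 11 promoters at hand for the 12 genes called lower without CTL replicate 3, 4 held the ETS, 2 the NRF1 and 1 the YY1 motif. Of the promoters printed above, that of Dlst holds both ETS and SP1 letters, that of Idh2 SP1 letters alone and that of Ndufb5 ETS letters alone. A match is a description of the sequence and not evidence of binding.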

How the data were processed

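The authors normalized the arrays by GCRMA, which corrects the background by probe sequence, and deposited 1 log2 expression value per probe set and array. No raw data were processed here. Symbols came from the array annotation, updated by Entrez gene to GRCr8 RefSeq names, and 20826 of 31042 probe sets carry 1 symbol. The 57 control probe sets were left out of tests. The 3 DHT and 3 CTL arrays were compared with limma 3.58.1 (lmFit, eBayes; R 4.3.3), the package and criteria that the study names, with Benjamini-Hochberg adjustment (FDR) over all 31042 probe sets, and errors after a fold change are its SE. Animals were separate, and the number of arrays limits the precision. The pooled arrays hold RNA of the same animals and were left out of the main comparison. Background was the 95th percentile of 41 sensory receptor probe sets. Named by rule are the 2 genes with the smallest and the 1 with the largest p of each class and called genes. Genes without overlap at a fold change of 2 or more belong to the rule too, which gives 18 genes. Values of other genes, such as those called without CTL replicate 3, were chosen for printing after they were seen. The genes, lists, tests and alternatives were chosen with earlier results of these data known. The fit was tested on simulated data. Alternatives changed the arrays, the scaling, the filter, the variance model, the probe set of a gene and the criteria.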

Additional observations from a re-analysis of the deposited data

How the results depend on the processing

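With all animals 0 of the 40 genes were called lower and 0 higher. Leaving out 1 array at a time gave 0 to 12 called lower, the 12 without CTL replicate 3, and 0 called higher. Without any 1 DHT replicate no probe set of all 31042 was called, so the 0 for the genes says nothing there. The median log2 fold change of the genes then ran from -0.97 to 0.19. Lower calls numbered 1 with the pooled arrays as replicate 4, 1 with quantile normalization, 8 with array quality weights (CTL replicate 3 had a weight of 0.028), 1 with the Gapdh covariate and 1 at an unadjusted p of 0.05 alone. Higher calls numbered 1 with weights, 22 with the covariate and 1 at that p alone. With the covariate the median log2 fold change was 1.25, and by class 0.92 for the citrate cycle, 0.77, 2.10, 0.56 and 1.38 for complexes I to IV and 1.67 for complex V. Among the 18 genes named by rule, its calls turned the sign for Idh3g (1.48), Ndufv2 (1.62), Sdhb (2.59) and Uqcrc2 (1.34). They did so for Atp5f1b (1.67) and Atp5f1c (1.28) too, and Atp5f1a turned to -1.25 without CTL replicate 3. Genes outside those 18 also turned, such as Cs (1.79), Dld (1.92) and Ndufs1 (1.10) with the covariate. Ndufa8 turned to a lower call (-1.09) without CTL replicate 3. Under quantile normalization CTL replicate 3 lay at 0.25 for complex III and -0.50 for complex IV. The cause of these changes was not tested, and in the covariate fit CTL and DHT overlap on the covariate through CTL replicate 3 alone. Over all 31042 probe sets, 320 were called with all animals, 1622 without CTL replicate 3, 1874 with weights, 3747 with the covariate and 61 with a mean-variance trend. Lower calls among all probe sets numbered 433 with the pooled arrays, 86 with quantile normalization, 1144 with weights and 1088 with the covariate. Higher calls among them numbered 730 with weights and 2659 with the covariate.

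The replicate number as a block gave 0 calls among the 40 genes, with the same median of -0.14, and 0 over all probe sets. Same-numbered DHT and CTL animals deviated from their group means with r of -0.07, 0.44 and 0.34, and the labels give no pairing, so they share only a number. Of 270 values of the 18 genes named by rule under alternatives, 252 stayed on the same side of the call without reversing and 11 became called in the same direction. The 7 reversed are given above, and 39 further values changed sign with no call in either setting. A common array median, the dim filter, the trend, an FDR of 10% alone and the mean of all probe sets gave no call.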
